A study of Mus musculus with 4 samples.

Results

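The Myc family and the D-type cyclins are 6 genes, Ccnd1, Ccnd2, Ccnd3, Myc, Mycl and Mycn, out of 30406 genes listed in every library of a single-cell RNA sequencing study of the mouse common bile duct. The 6 were chosen by name and read by Ensembl ID in each cell type. The mutant library, here GOF, has the genotype Prom1_BcatGOF, a mosaic gain of function of Ctnnb1 (beta-catenin), so that it can hold cells with and without the altered allele. It was compared with 3 wild-type libraries, WT 1, WT 2 and WT 3. All were untreated whole ducts that had been dissected free of neighbouring tissue and digested with dispase and a bacterial protease. Age, sex, the allele and the number of animals per library were not given in the sources used here, and no label says whether WT 1, WT 2 and WT 3 were different animals. The p-values below therefore measure only the spread between these libraries. The GOF group is 1 library: its tests take their spread from the wild-type libraries and assume that it varies as they do.

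D-type cyclins bind the kinases Cdk4 and Cdk6, which phosphorylate the retinoblastoma protein, release E2F factors and allow entry into S phase. Myc, Mycl and Mycn bind DNA as partners of Max at E-box sequences and drive ribosome production and growth. Ccnd1 and Myc are textbook targets of beta-catenin and Tcf/Lef factors in the intestinal epithelium, where Axin2 and Nkd1 are feedback genes of the same pathway.

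Each value is a count of UMIs (unique molecular tags, 1 per captured transcript molecule) summed over the cells of 1 type in 1 library. Levels are given per 1000000 UMIs of those cells (CPM). The libraries held 113596685 UMIs in 10796 barcodes in GOF and 9558637 to 43737469 UMIs in 2649 to 6253 barcodes in WT, with a median mitochondrial share of 2.99% in GOF and 10.1% to 14.8% in WT. After filtering, 9255 GOF cells and 2063 to 4268 WT cells remained. The marker gate, which names a cell type from fixed marker genes, found 4725 epithelial cells in GOF and 2941, 1479 and 1043 in WT 1, WT 2 and WT 3, with median depths of 8221 UMIs in GOF and 7621, 3783 and 2698 UMIs in WT. All 10 epithelial markers were detected in the epithelial cells of every library, at summed levels of 13392 CPM in GOF and 10165 to 12863 CPM in WT. Mesothelium markers summed to 137 CPM in GOF epithelium and 14.9 to 32.6 CPM in WT epithelium, with all 6 detected in every library, and tuft markers to 134 CPM in GOF and 26.6 to 63.7 CPM in WT, with 8 of 8 detected in GOF and 7 to 8 in WT; their part in the epithelial changes was not tested. Pairs of libraries shared 5 to 19 cell barcodes. The GOF matrix was made with another version of the counting program than the WT matrices, and this difference and the genotype cannot be told apart.

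In the GENCODE M21 annotation of build GRCm38, Ccnd1 lies at chr7:144929931-144939925 on the minus strand, Ccnd2 at chr6:127125162-127152193 on the minus strand and Ccnd3 at chr17:47505051-47599691 on the plus strand. Myc lies at chr15:61985391-61990374 on the plus strand, Mycl at chr4:122995652-123002485 on the plus strand and Mycn at chr12:12936093-12941914 on the minus strand. The genes differ in intron length, which was 2.267 kb in Myc, 2.527 kb in Mycn, 2.796 kb in Mycl, 5.286 kb in Ccnd1, 17.623 kb in Ccnd2 and 85.866 kb in Ccnd3. RefSeq promoter windows of 250 bases upstream of a start (build GRCm38.p6) were at hand for 3 of the 6 genes, as 4 windows, 2 of them for Ccnd3. The windows of Mycn and Ccnd3 are shown because these genes stand at opposite ends of the results, Mycn near the detection limit and Ccnd3 with a change in the GOF epithelium. They are Mycn at chr12:12941837-12942086 (minus strand) and Ccnd3 at chr17:47504801-47505050 and chr17:47593217-47593466 (plus strand), with matches to the E2F motif TTTGGCGC in capitals.
Mycn: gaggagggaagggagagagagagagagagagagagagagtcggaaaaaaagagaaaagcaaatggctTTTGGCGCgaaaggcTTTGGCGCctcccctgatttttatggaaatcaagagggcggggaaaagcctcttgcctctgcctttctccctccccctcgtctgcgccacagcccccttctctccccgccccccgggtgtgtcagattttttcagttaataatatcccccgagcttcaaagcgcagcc
Ccnd3 upstream start: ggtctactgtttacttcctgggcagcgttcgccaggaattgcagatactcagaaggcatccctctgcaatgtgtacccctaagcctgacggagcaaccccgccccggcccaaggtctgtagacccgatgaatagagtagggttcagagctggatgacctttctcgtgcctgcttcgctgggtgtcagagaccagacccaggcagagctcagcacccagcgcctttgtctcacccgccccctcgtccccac
Ccnd3 downstream start: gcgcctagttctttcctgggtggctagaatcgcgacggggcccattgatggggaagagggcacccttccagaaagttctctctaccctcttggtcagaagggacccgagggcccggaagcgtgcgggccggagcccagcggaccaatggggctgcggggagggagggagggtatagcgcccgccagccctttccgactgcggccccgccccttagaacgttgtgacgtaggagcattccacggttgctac
The Mycn window held 2 copies of TTTGGCGC, whose first bases are at positions -183 and -168 from the start, and 137 of 32851 promoter windows of this length (0.417%) held at least 1 copy on either strand. The Tcf/Lef motif CTTTGAT, held by 3.21% of all windows, and the E-box CACGTG, held by 6.02%, were in none of the 4 windows of Mycn, Ccnd3 and Mycl. The windows of Ccnd1, Ccnd2 and Myc were not analysed here.

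Epithelial cells of the GOF library had higher counts of Ccnd2 and Ccnd3 than wild-type epithelium, by 3.71-fold and 4.21-fold. Of the 6 genes, these 2 passed the test as higher and none as lower, where 11.6% of all 15640 genes tested were called higher and 4.07% lower. Testing used the quasi-likelihood method of edgeR, adjusted over all genes. Ccnd1 was above every WT library without passing the test, and the Myc genes changed little relative to their spread. For all 6, genotype and the version of the counting program cannot be told apart. Among genes with 50 to 100 kb of intron, as in Ccnd3, 17.6% were called higher. Ccnd3 missed the threshold when its change was set against that in fibroblasts (edgeR adjusted p 0.0928), while Ccnd2 passed it (edgeR adjusted p 0.0151).

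Ccnd2, which encodes cyclin D2, on which B cells and ovarian granulosa cells of the mouse depend, had 436.5 CPM (27802 UMIs) in GOF epithelium, against 103.5, 105.0 and 68.7 CPM in WT 1, WT 2 and WT 3. The GOF value lay above all 3 WT libraries, which averaged 92.4 ± 20.5 CPM (SD, n = 3). The log2 fold change was 1.89 (SE 0.241, edgeR adjusted p 0.00845). Leaving out each WT library in turn gave 1.76 to 2.01, with edgeR adjusted p of 0.0151 at most.

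Ccnd3, the D-type cyclin best known for its role in lymphocytes, had 159.8 CPM (10178 UMIs) in GOF epithelium, against 34.3, 26.9 and 27.7 CPM in the WT libraries. The WT values lay close together (29.6 ± 4.08 CPM, SD, n = 3) and far below GOF. The log2 fold change was 2.07 (SE 0.199, edgeR adjusted p 0.00428). Ccnd3 has the longest introns of the 6. In the annotation it overlaps Bysl on the opposite strand, as Ccnd1 overlaps LTO1 and Ccnd2 a pair of antisense RNA genes. The sources used do not state whether strand was used in counting, and the part of such overlaps in the counts was not tested.

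Ccnd1, which encodes cyclin D1, had 253.2 CPM (16131 UMIs) in GOF epithelium, against 168.7, 103.1 and 45.0 CPM in WT 1, WT 2 and WT 3. GOF was the highest, but WT 1 and WT 3 differed from each other more than GOF and WT 1 did. The log2 fold change of 0.91 (SE 0.597) missed the threshold (edgeR adjusted p 0.326), and without WT 1 it was 1.46 with an edgeR adjusted p of 0.0457. Across the 3 WT libraries the order of Ccnd1 levels was that of median epithelial depth (7621, 3783 and 2698 UMIs) and the reverse of the mitochondrial share (10.1%, 11.5% and 14.8%), and the part of either in the result was not tested.

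**Figure D1:**
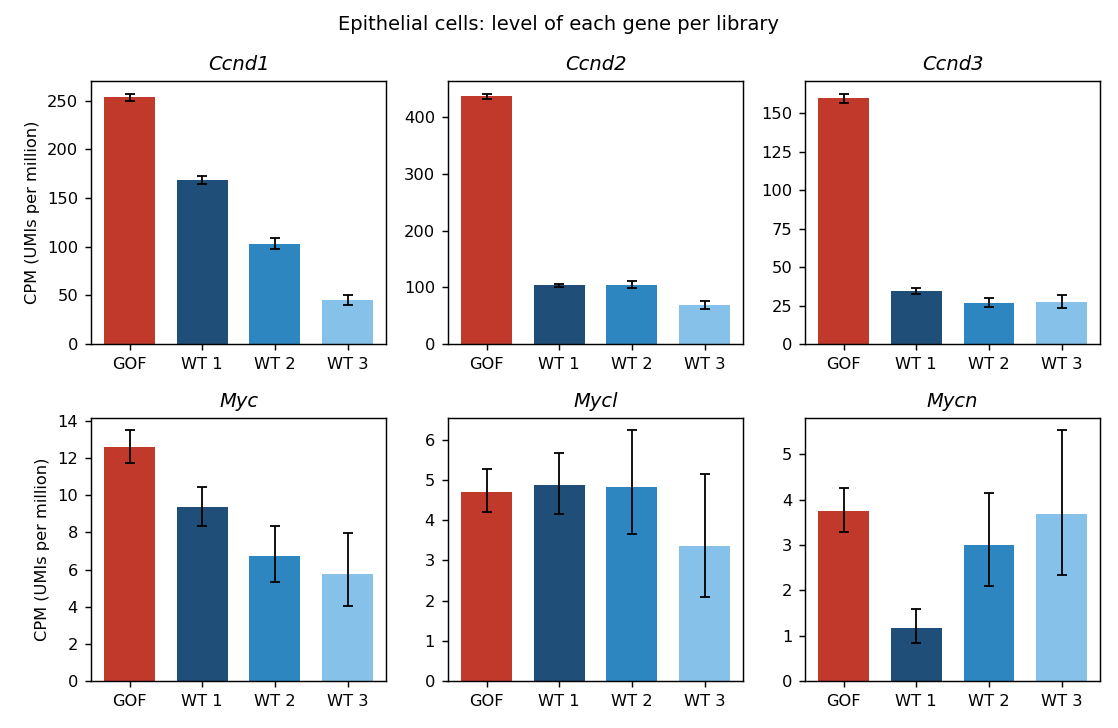
Level of each gene in epithelial cells (CPM, linear axis from 0, a scale per panel) in the GOF library and the 3 WT libraries, with 95% Poisson intervals that cover counting error only. GOF stands at 436.5 CPM for Ccnd2 and 159.8 CPM for Ccnd3, above every WT bar, while the Ccnd1 bars of WT run between 45.0 and 168.7 CPM and those of Mycl and Mycn overlap GOF.

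The 3 cyclins together took 849 CPM in GOF epithelium, against 306, 235 and 141 CPM in the WT libraries. Ccnd2 made up 51.4% of the cyclin D UMIs in GOF, against 33.8%, 44.7% and 48.6% in WT. Ccnd1 made up 29.8% in GOF, against 55.0%, 43.9% and 31.8% in WT, so that WT 3 lay near GOF in composition and WT 1 farthest. These shares compare 3' tags, of which a transcript gives 1 whatever its length, but they also follow any difference in how intronic reads were counted.

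Per cell the same differences appeared once each cell was thinned to 2000 UMIs. Ccnd2 was then detected in 48.0% of 4280 GOF epithelial cells, against 13.9%, 15.3% and 10.8% of 2831, 1324 and 778 WT cells. Ccnd3 was detected in 27.8% of GOF cells, against 5.06% to 6.46% of WT cells, and Ccnd1 in 35.5% of GOF cells, against 24.9%, 16.2% and 8.10% of WT cells. At full depth the shares were 75.9% in GOF and 20.7% to 39.3% in WT for Ccnd2, and 66.6% in GOF and 12.8% to 28.9% in WT for Ccnd3. Thinning left out 445 GOF cells and 110, 155 and 265 WT cells with fewer UMIs. In tuft cells of the GOF library, chemosensory epithelial cells with a median depth of 6162 UMIs that were captured in the same library, Ccnd2 was found in 0 of 110 thinned cells (below 2.73%, the share at a floor of 3 counts, which is not an exact limit) and Ccnd1 in 1 of 110. At full depth these cells held 2 Ccnd2 UMIs and 4 Ccnd1 UMIs, so a UMI missing after thinning does not show that the gene is off.

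The Myc family was detected at low levels in the epithelium. Myc had 12.6 CPM (803 UMIs) in GOF, against 9.36, 6.74 and 5.77 CPM in WT 1, WT 2 and WT 3, and its log2 fold change of 0.42 (SE 0.330) did not pass the test (edgeR adjusted p 0.411). Mycl, the L-Myc gene, had 4.71 CPM in GOF, against 4.87, 4.82 and 3.36 CPM in WT, at -0.25 log2 relative to WT (SE 0.373, edgeR adjusted p 0.664). GOF lay within the WT range for Mycl. Mycn, the N-Myc gene, had 3.75 CPM in GOF, against 1.16, 2.99 and 3.68 CPM in WT, and its log2 fold change was 0.23 (SE 0.685, edgeR adjusted p 0.832). In cells thinned to 2000 UMIs, Myc was detected in 2.10% of GOF cells and 1.03% to 1.34% of WT cells, Mycl in 0.911% of GOF cells and 0.257% to 0.777% of WT cells, and Mycn in 0.748% of GOF cells and 0.283% to 0.900% of WT cells.

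Of the gene lists around the 6 members, that of Wnt feedback genes held the most calls in the GOF epithelium. Of 12 Wnt feedback genes, 11 were called higher and none lower, with a median log2 fold change of 4.76 beside 0.0016 over all genes tested. Axin2, which helps degrade beta-catenin, had a log2 fold change of 4.18 (edgeR adjusted p 0.00279), and Nkd1, an inhibitor of Dishevelled, one of 6.73 (edgeR adjusted p 0.00552). The Wnt receptor antagonist Apcdd1 had 106 UMIs in GOF epithelium and 0 in WT epithelium, which makes it at least 29.3-fold higher against a floor of 3 counts over the WT libraries together. The altered Ctnnb1 allele itself cannot be read from these counts. The list was chosen with earlier results of these data known, so it is no independent check of the genotype label. Genotype and the version of the counting program cannot be told apart for these genes either. Apcdd1 and Lef1, with 0 and 1 UMI in WT epithelium, passed the filter on low counts through GOF alone and could only be called higher. The called genes have 0.707 to 161 kb of intron. Apcdd1 also had 32 UMIs in GOF fibroblasts and 0 in WT fibroblasts. Znrf3, named after its value was seen, had a log2 fold change of 2.60 in epithelium and 2.57 in fibroblasts (edgeR adjusted p 0.00294 and 0.181). Axin2 and Nkd1 were at -1.36 and 0.13 in fibroblasts.

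Of 13 Myc partners and antagonists, 2 were called higher and none lower (median log2 fold change 0.02). They were Mlxip, a glucose-sensing partner of Mlx, with a log2 fold change of 1.80 (edgeR adjusted p 0.00753), and Fbxw7, the ubiquitin ligase subunit that marks Myc for degradation, with 1.32 (edgeR adjusted p 0.0103). Of 22 Myc target genes of ribosome production and metabolism, edgeR called none in either direction, with 3 at an unadjusted p under 0.05, and their median log2 fold change was -0.10. DESeq2 called 1 of them higher and 1 lower, and limma-voom 1 higher and 2 lower. Of the 12 partners of D-type cyclins, kinase inhibitors and Rb family genes, 11 were tested and edgeR called 1, the retinoblastoma gene Rb1 (1.44 log2, edgeR adjusted p 0.0203), while DESeq2 called 2 higher and limma-voom 3. Cdk4, the main kinase partner, is in 2 of the lists and had a log2 fold change of -0.01 (edgeR adjusted p 0.987). It was named after its value was seen.

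Of 25 E2F factors and G1/S genes, edgeR called 1 higher, the activating factor E2f3 (1.83 log2, edgeR adjusted p 0.0334), with a list median of 0.41. Of 18 mitotic genes, edgeR called 1 higher, the kinetochore gene Cenpf (2.01 log2, edgeR adjusted p 0.0148). All 18 had positive log2 fold changes, with a median of 1.41, but Mki67 (1.08 log2, edgeR adjusted p 0.0634) and Top2a (1.63 log2, edgeR adjusted p 0.0993) missed the threshold. DESeq2 called 5 of the mitotic genes higher and limma-voom 7, and 7 had an unadjusted edgeR p under 0.05. Of the E2F and G1/S genes, DESeq2 called 1 higher and limma-voom 4 higher and 1 lower. The 5 genes called by edgeR outside the Wnt list have 157 kb (Fbxw7), 136 kb (Rb1), 74.1 kb (E2f3), 54.8 kb (Mlxip) and 32.0 kb (Cenpf) of intron. Of all genes tested in epithelium, 43.4% of those with 100 kb or more of intron were called higher. The share was 17.6% at 50 to 100 kb and 7.87% at 20 to 50 kb. In fibroblasts the log2 fold changes of the 5 genes, in the same order, were 2.12, 2.21, 0.92, 0.90 and 1.52, none past the threshold.

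Intron length moved with the fold change across all genes. In epithelium the median log2 fold change was -0.45 for genes with less than 2 kb of intron, -0.22 for 5 to 10 kb, -0.14 for 10 to 20 kb, 0.41 for 50 to 100 kb and 1.27 for 100 kb or more. Within its own class of intron length, Ccnd2 stood above 89.1% of the genes, Ccnd3 above 88.9%, Ccnd1 above 84.6%, Myc above 80.6%, Mycn above 76.3% and Mycl above 53.4%. In fibroblasts the medians ran the same way, at -0.42 for less than 2 kb and 1.29 for 100 kb or more, and there Ccnd3 stood above 36.2% and Ccnd2 above 18.7% of its class. The shares are descriptions with no test.

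**Figure D2:**
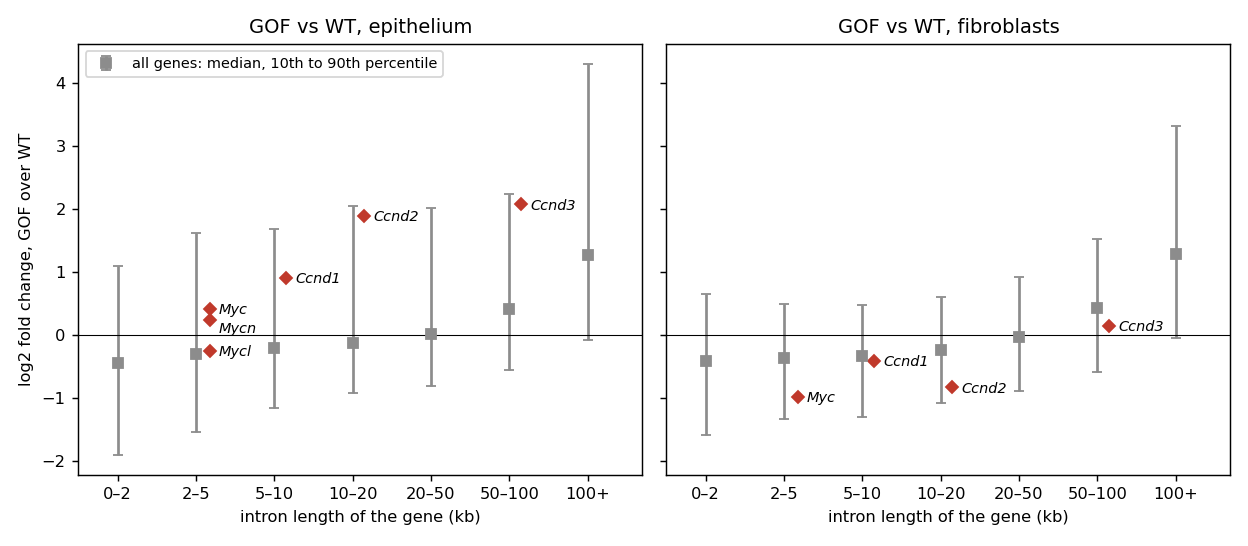
Log2 fold change, GOF over WT, by intron length of the gene in kb, in epithelium (left) and fibroblasts (right). Grey squares are the medians of all genes tested with bars for the 10th to 90th percentile, and red diamonds are the members: Ccnd2 at 1.89 and Ccnd3 at 2.07 stand near the upper ends of their bars in epithelium, and below the grey medians in fibroblasts.

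Fibroblasts of the same libraries were tested in the same way. Of the 6 genes, none was called higher or lower in GOF fibroblasts, where 1.65% of 10462 genes were called higher and 0.143% lower. None of the 4 members tested had an unadjusted edgeR p under 0.05, and DESeq2 and limma-voom called none. Without WT 2, edgeR called 0 of 7019 genes there, with 1372 at an unadjusted p under 0.05. Ccnd2 had 38.0 CPM in GOF fibroblasts, against 78.8, 56.3 and 45.8 CPM in WT (log2 fold change -0.83, edgeR adjusted p 0.509). GOF was the lowest of the 4, but among fibroblasts with a UMI of Dpt, which encodes the matrix protein dermatopontin, Ccnd2 had 61.0 CPM in GOF and 53.7, 45.7 and 54.0 CPM in WT, and the log2 fold change was 0.08. Ccnd3 had 89.7 CPM in GOF fibroblasts, against 102, 55.7 and 63.6 CPM in WT (log2 fold change 0.14, edgeR adjusted p 0.931). Myc had 17.0 CPM in GOF, against 35.6, 23.6 and 33.1 CPM in WT (log2 fold change -0.99, edgeR adjusted p 0.419), and Ccnd1 had 32.6 CPM in GOF, against 73.7, 31.5 and 12.7 CPM in WT (log2 fold change -0.41, edgeR adjusted p 0.869). Smooth muscle and pericyte markers summed to 1090 CPM in GOF fibroblasts and 158 to 228 CPM in WT fibroblasts, with 7 of 7 markers detected in GOF and 5 to 6 in WT, and tuft markers to 414 CPM in GOF and 78.8 to 93.3 CPM in WT, with 7 of 8 detected in GOF and 1 to 6 in WT. Their part in the fibroblast values, and in the comparison of epithelium with fibroblasts that follows, was not tested. Mycl and Mycn were too low to test, with 13 and 2 UMIs in GOF fibroblasts and 1 UMI each in all WT fibroblasts.

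The change in epithelium was then tested against the change in fibroblasts of the same libraries, with the library as a block. For Ccnd2 the epithelial change exceeded the fibroblast change by 2.74 on the log2 scale, or 6.67-fold (SE 0.538, edgeR adjusted p 0.0151), and Ccnd2 was the only member called where 0.352% of 15331 genes were called higher and 0.137% lower. It was 1.87 (edgeR adjusted p 0.0111) against Dpt fibroblasts alone. For Ccnd3 the difference of 1.96 (SE 0.492) missed the threshold at an edgeR adjusted p of 0.0928, and passed it without WT 2 (edgeR adjusted p 0.0034) and against Dpt fibroblasts (edgeR adjusted p 0.000654). Ccnd1 (1.29, edgeR adjusted p 0.712), Myc (1.48, edgeR adjusted p 0.770), Mycl (-2.44, edgeR adjusted p 1) and Mycn (0.60, edgeR adjusted p 1) did not pass. Of the Wnt feedback genes, 3 of 12 tested were called higher in this comparison, Nkd1, Notum and Axin2, and no gene of the other lists was called by edgeR, DESeq2 or limma-voom, with 1 of those genes at an unadjusted edgeR p under 0.05.

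Among the further cell types tested, mesothelium and macrophages each had 1 member called higher in GOF. In the mesothelium, the cell layer that covers the duct, Ccnd1 had 145.3 CPM (896 UMIs, 398 cells) in GOF, against 23.6, 26.0 and 23.6 CPM (23, 13 and 7 UMIs) in WT. The WT values were nearly equal and GOF lay far above them, by 2.41 log2 or 5.33-fold (SE 0.315, edgeR adjusted p 0.00024). It was the only one of 4 tested members called, where 8.5% of 9010 genes were called higher and 3.05% lower, and leaving out each WT library gave 2.37 to 2.47. Ccnd2 (-0.57), Ccnd3 (0.09) and Myc (0.18) did not pass the test there. Of 9 mitotic genes tested in mesothelium, 7 were called higher. Among them was Mki67, with 166 UMIs in GOF and 0 in WT (15.9-fold against a floor of 3 counts, lower 95% counting limit 12.8). Another was Ube2c, a ubiquitin-conjugating enzyme of mitotic exit, with 331 UMIs in GOF and 2 in WT (ratio 47.5, 95% interval 13.05 to 393.9). The filter on low counts could pass a gene on the GOF library alone, as it did Mki67 and Ube2c. Such genes could only be called higher, and the other genes of the list of 18 were not tested. Epithelial markers summed to 4488 CPM in GOF mesothelium and 2391 to 3535 CPM in WT mesothelium, which shares keratins with epithelium; the part of these markers in the result was not tested. Epcam itself, at 46.0 CPM in GOF mesothelium, lay within the WT range of 34.0 to 61.6 CPM. Smooth muscle and pericyte markers summed to 179 CPM in GOF mesothelium and 58.1 to 104 CPM in WT, and tuft markers to 129 CPM in GOF and 16.8 to 32.0 CPM in WT, and their part was not tested either.

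In macrophages and monocytes, Ccnd2 had 151.2 CPM (1730 UMIs, 1255 cells) in GOF, against 12.6, 16.5 and 10.3 CPM (8, 15 and 3 UMIs) in WT. The log2 fold change was 3.42, or 10.7-fold (SE 0.404, edgeR adjusted p 0.00266), and it was the only one of 4 tested members called, where 6.32% of 8413 genes were called higher and 1.39% lower. Without WT 1 the edgeR adjusted p was 0.0617 and without WT 2 it was 0.0721, and in these fits edgeR called 0 genes, with 1576 and 1554 at an unadjusted p under 0.05, while the log2 fold change stayed between 3.33 and 3.62. In cells with 3 or more UMIs of the C1q genes, which resident macrophages express, it was 3.32 (edgeR adjusted p 0.000609), and in cells with fewer it was 4.19 (edgeR adjusted p 0.0637). Thinned to 2000 UMIs per cell, 19.6% of GOF macrophages had a Ccnd2 UMI, against 0.990%, 3.20% and 1.54% of WT macrophages.

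Ccnd2 in GOF macrophages stood at 34.6% of its level in GOF epithelium, while Epcam stood at 1.31% and Krt19 at 1.72% of theirs. The mitotic genes did not follow Ccnd2 in these cells: none of 17 tested was called higher, 1 was called lower (Ccnb2, -2.63 log2, edgeR adjusted p 0.0455), and the list median was -2.05. Rb1, with 136 kb of intron, was called higher (2.07 log2, edgeR adjusted p 0.0127), and Cdkn2a, a kinase inhibitor gene, lower (-3.95 log2, edgeR adjusted p 0.0183). Of the 13 Myc partners, 11 were tested and Mlxipl was called lower (-2.46 log2, edgeR adjusted p 0.0134). The marker list of macrophages and monocytes itself summed to 5998 CPM in GOF and 9420 to 16566 CPM in WT, with all 9 markers detected in every library, and the part of this difference in the result was not tested. Markers of T, NK and innate lymphoid cells summed to 40.1 CPM in GOF macrophages and 0 to 16.5 CPM in WT macrophages, and their part was not tested either. Ccnd1 had 22.9 CPM in GOF macrophages, against 93.0, 160.3 and 27.6 CPM in WT (log2 fold change -2.14, edgeR adjusted p 0.138), and Myc had 8.39 CPM in GOF, against 39.4, 21.96 and 20.7 CPM in WT (log2 fold change -1.76, edgeR adjusted p 0.101). GOF lay below all WT libraries for both without passing the test. Ccnd3 in GOF lay above all WT libraries in macrophages, lymphatic endothelium and neutrophils. Its log2 fold changes there were 0.81, 1.22 and 1.11, none past the threshold. In blood endothelium, where Ccnd3 was not tested, GOF was also above every WT library. In mesothelium and in fibroblasts as a whole, Ccnd3 in GOF lay within the WT range. The cause of these Ccnd3 differences was not tested.

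**Figure D3:**
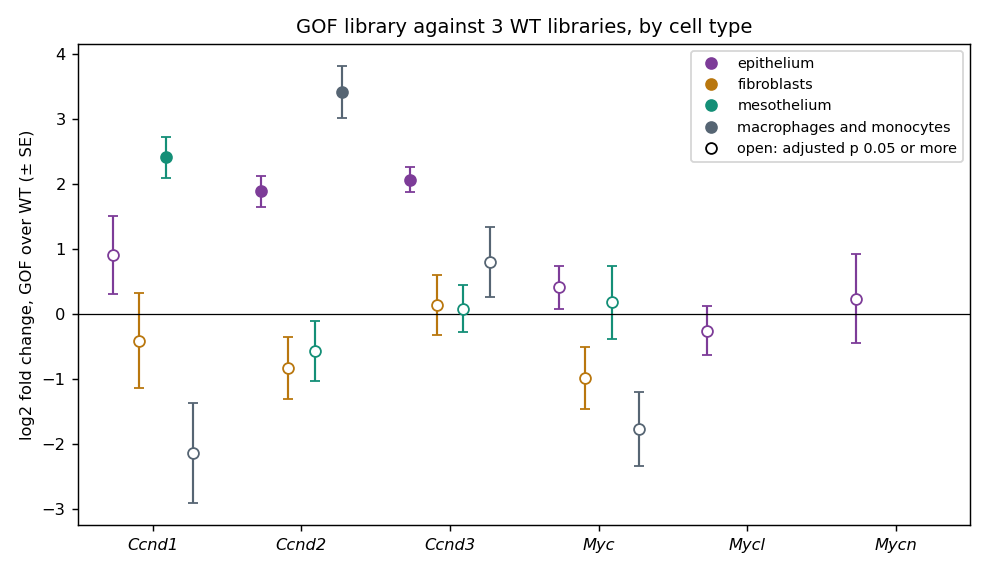
Log2 fold change of each gene, GOF over WT, with its standard error, in epithelium, fibroblasts, mesothelium, and macrophages and monocytes. Filled points passed an edgeR adjusted p of 0.05: Ccnd2 and Ccnd3 in epithelium, Ccnd1 in mesothelium (2.41) and Ccnd2 in macrophages (3.42); a missing point was too low to test.

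The wild-type libraries alone show how the 6 genes are shared out among cell types, with a test across the libraries as blocks. Against fibroblasts, WT epithelium held more Ccnd1 and Ccnd2 and less Ccnd3 and Myc. Of 5 members tested, 3 were called higher and 2 lower, where 15.8% of 11861 genes were called higher and 16.4% lower. Of the 3, Mycl passed the filter on low counts through epithelium alone, so it could only be called higher. Ccnd1 averaged 105.6 ± 61.9 CPM in WT epithelium and 39.3 ± 31.3 CPM in WT fibroblasts (SD, n = 3 each), a difference of 1.57 log2 (SE 0.261, edgeR adjusted p 0.000977). Without the block, which pairs the cell types of a library, it was 1.51 (edgeR adjusted p 0.0869). Myc averaged 7.29 ± 1.86 CPM in WT epithelium and 30.8 ± 6.31 CPM in WT fibroblasts (-1.997 log2, SE 0.331, edgeR adjusted p 0.000959). Ccnd3 averaged 29.6 ± 4.08 CPM in WT epithelium and 73.7 ± 24.6 CPM in WT fibroblasts (log2 fold change -1.21, SE 0.231, edgeR adjusted p 0.00226).

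Ccnd2 averaged 92.4 ± 20.5 CPM in WT epithelium and 60.3 ± 16.9 CPM in WT fibroblasts, a log2 difference of 0.69 that stood near the threshold (SE 0.235, edgeR adjusted p 0.0463) and missed it without WT 2 or WT 3 and without the block (0.67, edgeR adjusted p 0.0820). The third call, Mycl (3.48 log2, edgeR adjusted p 0.0270), also missed the threshold without WT 2 (edgeR adjusted p 0.140) and without WT 3 (edgeR adjusted p 0.0886). It had 247 UMIs in WT epithelium and 1 UMI in WT fibroblasts, a ratio of 11.4 per UMI sequenced with a 95% counting interval of 2.03 to 452. Mycn had 99 UMIs in WT epithelium and 1 UMI in WT fibroblasts (ratio 4.57, 0.802 to 182). In the GOF library the same comparison of epithelium with fibroblasts gave a ratio of 2.22 (1.28 to 4.22) for Mycl and 11.5 (3.15 to 95.5) for Mycn.

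Against other WT cell types the D-type cyclins divided differently. Ccnd1 was higher in WT epithelium than in mesothelium (2.24 log2, edgeR adjusted p 0.000108), blood endothelium (2.01, edgeR adjusted p 0.0134) and neutrophils (2.78, edgeR adjusted p 0.000398), where 14.8%, 12.5% and 30.2% of 8283 genes were called higher. It was not shown to differ from lymphatic endothelium (-0.09, edgeR adjusted p 0.901) or macrophages (0.20, edgeR adjusted p 0.694). Ccnd2 was higher in WT epithelium than in macrophages (2.93, edgeR adjusted p 8.18e-06, beside 22.9% of genes called higher), lymphatic endothelium (1.84, edgeR adjusted p 0.00774, beside 16.5%) and mesothelium (1.25, edgeR adjusted p 0.0136). Ccnd3 was lower in WT epithelium than in neutrophils (-3.01, edgeR adjusted p 8.85e-06, beside 19.1% of genes called lower), macrophages (-1.55, edgeR adjusted p 0.00291, beside 20.1%) and mesothelium (-1.24, edgeR adjusted p 0.0227, beside 18.2%). Myc was lower in WT epithelium than in macrophages (-1.85, edgeR adjusted p 0.000319), and neutrophils held 0 Myc UMIs, which puts WT epithelium at least 2.07-fold higher against a floor of 3 counts over the neutrophils of the WT libraries together.

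By mean level over the WT libraries, among types with at least 20 cells in each, Ccnd1 ran in the order lymphatic endothelium (134.5 ± 57.6 CPM), epithelium (105.6 ± 61.9), macrophages (93.6 ± 66.4), fibroblasts (39.3 ± 31.3), blood endothelium (36.0 ± 14.9), mesothelium (24.4 ± 1.41) and neutrophils (14.2 ± 13.6; SD, n = 3 each). The ranges of each neighbouring pair overlapped. Ccnd2 ran from neutrophils (116.0 ± 85.4 CPM) through epithelium (92.4 ± 20.5), blood endothelium (87.5 ± 48.7), fibroblasts (60.3 ± 16.9), mesothelium (43.0 ± 25.7) and lymphatic endothelium (33.8 ± 34.9) to macrophages (13.1 ± 3.10), with each neighbouring pair overlapping down to lymphatic endothelium and macrophages, whose ranges also met. Ccnd3 was highest in neutrophils (241.9 ± 192.4 CPM), then lay between 73.7 and 86.9 CPM in macrophages, mesothelium and fibroblasts without separation, and between 29.1 and 38.6 CPM in blood endothelium, epithelium and lymphatic endothelium. Myc lay between 27.4 and 30.8 CPM in fibroblasts, blood endothelium and macrophages, which did not differ beyond their spread, though blood endothelium had 3, 2 and 2 UMIs, at 14.1 ± 8.64 CPM in mesothelium, 10.2 ± 4.90 CPM (1, 2 and 1 UMIs) in lymphatic endothelium and 7.29 ± 1.86 CPM in epithelium.

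Cell types too small for these tests added some high levels. Smooth muscle cells and pericytes held Ccnd2 at 311 CPM in GOF and 282, 286 and 214 CPM in WT, where WT 1 had 8 such cells and the difference was not tested. T, NK and innate lymphoid cells held Ccnd2 at 388 CPM in GOF and 343, 239 and 754 CPM in WT, and Ccnd3 at 601 CPM in GOF and 303, 319 and 0 CPM in WT, where WT 3 had 8 such cells. B cells held Ccnd3 at 488 CPM in GOF, against 112, 48.7 and 91.6 CPM in WT (67, 14 and 6 cells). Tuft cells held Ccnd3 at 193 CPM in GOF, against 51.5, 103 and 0 CPM in WT, but Ccnd1 at 5.86 CPM (4 UMIs) and Ccnd2 at 2.93 CPM (2 UMIs) in GOF and 0 UMIs of either in WT. Among groups of at least 20 cells, the highest Mycl level was in 38 dendritic cells of the GOF library, at 51.8 CPM (15 UMIs), where WT 1 had 1 such cell with 1 Mycl UMI. The GOF level was 11.0 times the level of GOF epithelium (95% counting interval 6.07 to 18.4). L-Myc is known as the Myc protein of dendritic cells in the mouse.

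**Figure D4:**
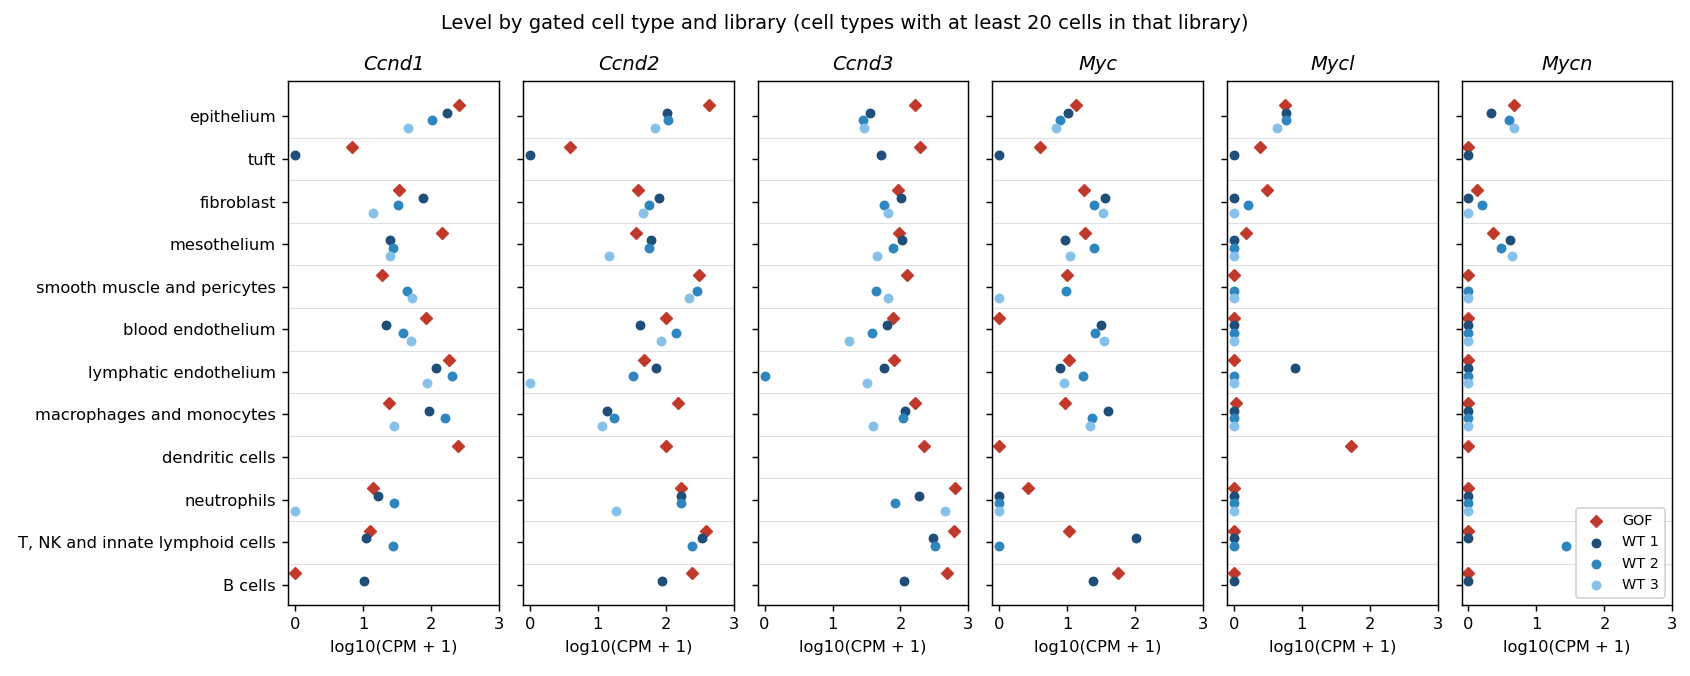
Level of each gene as log10(CPM + 1) (log scale) by gated cell type, for the GOF library (red diamonds) and the 3 WT libraries (blue points), shown where that library has at least 20 cells of the type. GOF stands right of WT for Ccnd2 in epithelium (436.5 CPM) and macrophages (151.2 CPM), for Ccnd1 in mesothelium (145.3 CPM) and for Ccnd3 in epithelium (159.8 CPM), and Mycl is highest in GOF dendritic cells (51.8 CPM).

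Within the GOF library, epithelial cells were next divided by the detection of Axin2 or Nkd1. Of 4725 cells, 2140 (45.3%) had a UMI of either gene, against 3.13%, 5.81% and 3.64% of WT epithelial cells (92, 86 and 38 cells). The GOF cells with a UMI were deeper (median 12790 UMIs) than those without (6999 UMIs), so the ratios after thinning are given beside those at full depth. Ratios within 1 library carry 95% intervals for counting error only, with no test over samples.

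Mycl had the widest ratio, with 6.03 CPM in cells with Axin2 or Nkd1 and 2.19 CPM in cells without, a ratio of 2.75 (2.02 to 3.83), and 2.89 (1.46 to 5.71) after thinning each cell to 2000 UMIs. Mycn had 4.62 CPM in cells with a UMI and 2.10 CPM in cells without (2.20, 1.59 to 3.11), which thinning took to 1.60 (0.695 to 3.46). Myc had 14.5 CPM in cells with a UMI and 8.94 CPM in cells without (1.63, 1.38 to 1.92), and 1.57 (0.993 to 2.45) after thinning. All 3 Myc genes were thus higher in the Axin2 or Nkd1 cells at full depth, and after thinning the interval of Mycl alone left out 1.

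Ccnd2 had 474.7 CPM in cells with Axin2 or Nkd1 and 363.6 CPM in cells without, a ratio of 1.31 (1.27 to 1.34; thinned 1.19, 1.10 to 1.28). Ccnd1 went the other way, with 238.5 CPM in cells with a UMI and 281.3 CPM in cells without (0.848, 0.821 to 0.876; thinned 0.787, 0.706 to 0.875). Ccnd3 was near 1, with a ratio of 0.957 (0.919 to 0.997; thinned 1.03, 0.909 to 1.15). In the WT libraries the same split of Ccnd2 gave 1.73 (1.56 to 1.91), 1.21 (1.03 to 1.40) and 1.05 (0.746 to 1.45), and that of Ccnd1 gave 0.947, 0.874 and 0.988 with intervals that all held 1.

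Graded by the number of Axin2 and Nkd1 UMIs per cell (0, 1, 2, 3 to 4, 5 to 9, and 10 or more), Ccnd1 was 281, 260, 245, 249, 239 and 224 CPM. Ccnd2 was 364, 432, 484, 488, 474 and 483 CPM, so at full depth it was lower in cells with 0 or 1 UMI and level from 2 UMIs on. Thinned to 2000 UMIs, Ccnd2 ran 391.8, 475, 450 and 450 CPM over 0, 1, 2 and 3 to 4 UMIs, so that only the cells with 0 stood lower. Mycl was 2.19, 4.92, 5.30, 5.25, 5.65 and 7.32 CPM, and Mycn was 2.10, 1.28, 2.77, 5.09, 5.47 and 5.51 CPM. Ccnd1 thinned in the same way ran 260, 219, 193 and 155 CPM (3222, 669, 231 and 139 cells). Thinned Mycl ran 3.10, 7.47, 12.99 and 10.8 CPM on 20, 10, 6 and 3 UMIs, and Mycn 3.26, 4.48, 6.49 and 7.19 CPM on 21, 6, 3 and 2 UMIs, too few to order the groups above 0.

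**Figure D5:**
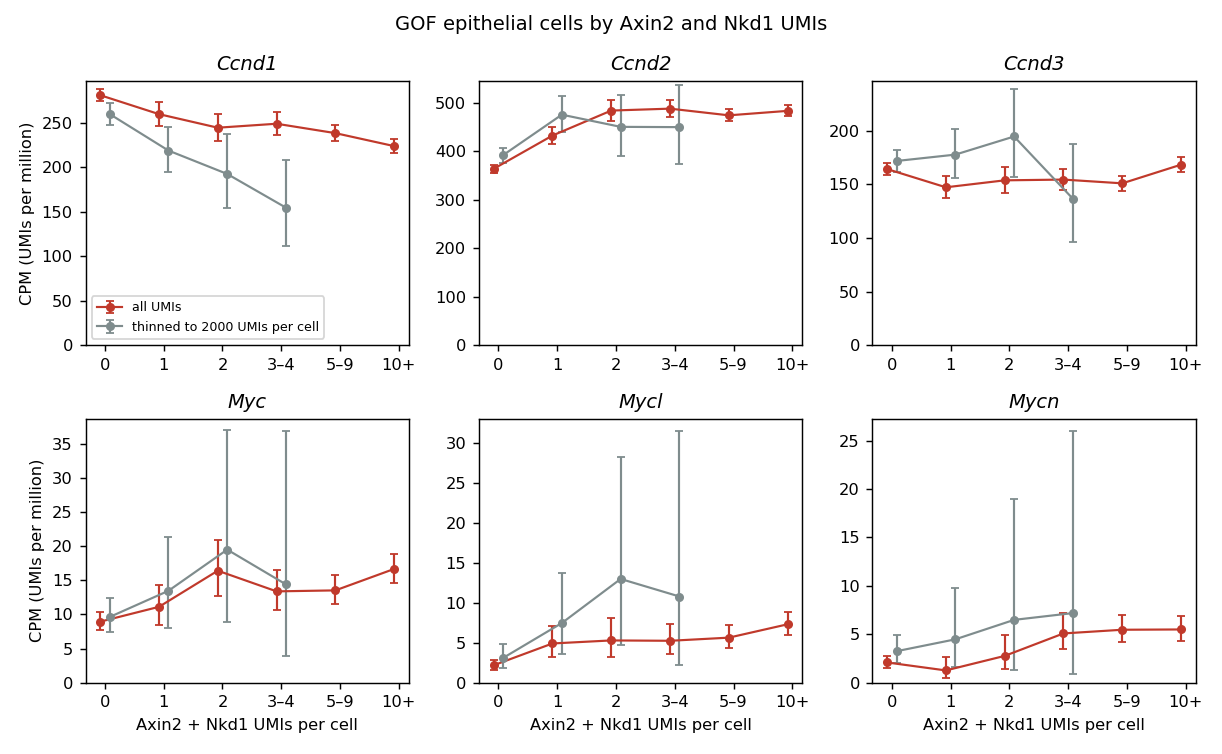
Level of each gene (CPM, linear axis from 0) in GOF epithelial cells by their number of Axin2 and Nkd1 UMIs, at full depth (red) and thinned to 2000 UMIs per cell (grey; groups under 20 cells are not drawn), with 95% Poisson intervals that cover counting error only. Ccnd1 declines over the groups, 281 CPM at 0 and 224 CPM at 10 or more UMIs, while at full depth Ccnd2 levels off near 480 CPM from 2 UMIs on and Mycl and Mycn reach 7.32 and 5.51 CPM at 10 or more UMIs.

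GOF epithelial cells with no UMI of Axin2 or Nkd1 were also set against all WT epithelial cells, an alternative added after the data were seen. Ccnd2 remained higher, by 1.62 on the log2 scale (edgeR adjusted p 0.0143), and so did Ccnd3, by 2.11 (edgeR adjusted p 0.00446). Ccnd1 was at 1.06 (edgeR adjusted p 0.267), Myc at -0.08, Mycn at -0.62 and Mycl at -1.36 (edgeR adjusted p 0.0891), none past the threshold. The absence of a UMI does not show that a cell lacks the altered allele.

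The last division was by detection of Mki67 or Top2a, genes of S phase to mitosis. In WT epithelium, 142, 50 and 43 cells were cycling by this rule, and none of the 6 members was called between them and the other cells of the same libraries, where 1.88% of 11194 genes were called higher and 0.527% lower. The log2 differences were 0.26 for Ccnd1, 0.23 for Ccnd2, 0.10 for Ccnd3, -0.05 for Myc, 0.54 for Mycl and 0.48 for Mycn, with edgeR adjusted p of 0.324 at least. Ccnd1 was the 1 member at an unadjusted edgeR p under 0.05 (0.0198), and DESeq2 and limma-voom called none of the 6. At full depth Ccnd1 was 195, 124 and 66.2 CPM in cycling cells of WT 1, WT 2 and WT 3 and 166, 101 and 42.8 CPM in the other cells, higher in 3 of 3 libraries. The cycling cells were deeper. Among WT cells thinned to 2000 UMIs and without Axin2 or Nkd1, Ccnd1 was 80.0, 33.3 and 0 CPM in cycling cells. These rest on 8, 1 and 0 UMIs. The other cells had 153, 93.6 and 43.9 CPM, so the direction did not hold after thinning, on very few UMIs. Of 22 E2F and G1/S genes tested, 14 were called higher and none lower, led by the S phase cyclin Ccna2 (6.81 log2), Ccne1, which encodes cyclin E1 (4.72), and Rrm2, a ribonucleotide reductase subunit (4.57). Among the Rb and inhibitor genes 3 of 10 were called higher, Cdkn2d (2.19), Cdkn2c (1.60) and Rbl1 (1.47), and of the 22 Myc targets 2, Mcm4 (0.98) and Odc1 (0.36), of which DESeq2 called none. All 15 mitotic genes tested were higher, a list that includes both genes of the rule.

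In the GOF library 564 epithelial cells were cycling (median 18751 UMIs) and 4161 were not (median 7810 UMIs). Ccnd2 had 386 CPM in cycling cells and 450 CPM in the others, a ratio of 0.856 (0.831 to 0.882), and thinning to 2000 UMIs, which left 185 and 4095 cells, took it to 0.437 (0.339 to 0.556). Ccnd3 had 138 CPM in cycling cells and 166 CPM in the others (0.834, 0.793 to 0.876; thinned 0.678, 0.490 to 0.915). Ccnd1 was nearly equal, with 257 CPM in cycling cells and 252 CPM in the others (1.02, 0.983 to 1.06; thinned 0.805, 0.629 to 1.02). Myc had a ratio of 0.893 (0.746 to 1.06), Mycl of 1.37 (1.05 to 1.78) and Mycn, whose promoter window holds the E2F motif, of 1.09 (0.791 to 1.48). After thinning, cycling cells held 5, 4 and 1 UMIs of Myc, Mycl and Mycn, and the ratios were 1.24 (0.394 to 3.01), 2.53 (0.653 to 7.07) and 0.714 (0.0175 to 4.28), with intervals that all held 1. At full depth Ccnd2 in WT cycling cells was 113, 117 and 110 CPM and in the other WT cells 102, 104 and 64.4 CPM. It was above the others in 3 of 3 libraries there, unlike GOF. In thinned WT cells without Axin2 or Nkd1 it was 60.0, 100 and 35.7 CPM in cycling cells, on 6, 3 and 1 UMIs. The other cells had 80.8, 85.8 and 61.8 CPM, so that WT 1 and WT 3 then went the way of GOF. Whether GOF and WT differ in this was not tested.

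The divisions were also crossed. Ccnd2 was 501 CPM in GOF cells with Axin2 or Nkd1 that were not cycling, 404 CPM in those that were cycling, 371 CPM in cells with neither and 307 CPM in cycling cells without Axin2 or Nkd1 (1763, 377, 2398 and 187 cells). Ccnd1 was 235, 248, 279 and 300 CPM in the same 4 groups, the reverse order at full depth. Thinned to 2000 UMIs per cell and divided again, the groups held 1006, 52, 3089 and 133 cells. Ccnd2 was then 479, 231, 402 and 165 CPM and Ccnd1 205, 202, 263 and 199 CPM, so that Ccnd2 was lower in both cycling groups and the reverse order of Ccnd1 did not hold. With cells without a Mki67 or Top2a UMI in all libraries, Ccnd2 in GOF epithelium was higher than in WT by 1.97 on the log2 scale (edgeR adjusted p 0.00961) and Ccnd3 by 2.14 (edgeR adjusted p 0.00386).

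Over 39 values of cell type and library (12 cell types), the genes whose log2(CPM + 1) was most like each member were found by Pearson's r among 12624 genes. These values share libraries and depth, so r is given as a description. For Ccnd1 they were Tor1b (0.69), Cttnbp2nl (0.69) and Cgnl1 (0.67), and for Ccnd2 Cd82 (0.63), Gadd45b (0.60) and Arid5a (0.57). For Ccnd3 they were Fam49b (0.79), Bmt2 (0.74) and Dock8 (0.73), and for Myc Gpn1 (0.72), Ppan (0.69) and Nedd1 (0.68). For Mycl they were Xcr1, Tlr11 and Ffar4 (0.69 each), which rest on the GOF dendritic cells, whose gate uses Xcr1. The likeness of Mycn to Ccdc103 (0.85), Ppp2r2c (0.78) and Prr36 (0.76) rests on 1 Mycn UMI in the T, NK and innate lymphoid cells of WT 2.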

How the data were processed

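Gene-by-cell UMI counts were deposited by the authors as 10x matrices. Per the file headers they were made with Cell Ranger 7.0.0 (GOF) and 3.0.2 (WT), while the submitters' processing notes name Cell Ranger 7.1 and mm10. Protocol: 10x 3' v3, per the labels. The headers do not say whether intronic reads were counted. Counts were summed over the 30406 genes listed in both references. Barcodes needed 500 genes and at most 25% mitochondrial UMIs. The highest Scrublet scores (0.8% per 1000 barcodes; scanpy 1.11.5) were removed as doublets, 40 to 846 per library among passing cells. Cell types came from a marker gate (score of at least 0.2, gap of 0.1, at least 3 markers; epithelium with at least 1 Epcam UMI); 5.41% to 18.2% of cells stayed ungated.

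Counts per library and cell type were tested with edgeR 4.0.16 (R 4.3.3; TMM, filterByExpr, quasi-likelihood, Benjamini-Hochberg over all genes, threshold 0.05), with the library as a block where cell types or cell groups of the same libraries were compared, since those cells come from the same sample. CPM in the text use cell-type totals, while fold changes include TMM factors. Intervals are exact and cover counting error only. Tested on simulated data, the epithelial fit recovered 94.25% of genes changed by a log2 of 2 over 15015 genes, and the epithelium against fibroblast difference 62.37% over 14833. The simulation gave every gene the same spread, changed only genes with higher counts and held no library or intron effect. It does not give the recovery for genes with few counts or a wider spread. Alternatives used DESeq2 1.42.0 and limma 3.58.1. Genes named beside the members are, per list, up to 3 past the threshold with the largest change, the genes of the splits and the 3 most like each member that reaches 20 CPM. Members and lists were chosen with earlier results of these data known.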

Additional observations from a re-analysis of the deposited data

Results flagged for a closer look

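The change of Ccnd2 in GOF differed between epithelium and fibroblasts by 2.74 on the log2 scale, a difference that was itself tested (edgeR adjusted p 0.0151).

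Ccnd1 in the GOF library lay on opposite sides of all WT libraries in epithelium and in macrophages and monocytes. With TMM factors it had 23.0 CPM in GOF macrophages, against 99.1, 164.0 and 26.8 CPM in WT macrophages, and 210.8 CPM in GOF epithelium, against 179.0, 105.8 and 49.7 CPM in WT epithelium. Ccnd1 passed the test in neither cell type (edgeR adjusted p 0.326 in epithelium and 0.138 in macrophages). The difference between the cell types was not tested.

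Myc did the same, with 8.42 CPM in GOF macrophages, against 42.0, 22.5 and 20.1 CPM in WT macrophages, and 10.5 CPM in GOF epithelium, against 9.94, 6.91 and 6.37 CPM in WT epithelium. In epithelium GOF lay close to WT 1, and Myc passed the test in neither cell type (edgeR adjusted p 0.411 in epithelium and 0.101 in macrophages). The difference between the cell types was not tested for Myc either.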

How the results depend on the processing

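Of 451 alternative values, 372 kept their direction and their side of the threshold or moved within their error. For counts of genes called, which are among these values, the rule was instead to lie within a set fold of the main count. Counts of genes called depended most on the setting. In epithelium they were 2454, against 4991 with limma-voom, 116 when only genes under an intron limit of 5 kb were fitted and 1240 to 3240 without each WT library in turn. In fibroblasts they were 188, against 513 with no filter, 10 under that intron limit, 537 with Dpt fibroblasts and 0 (no WT 2) to 735. For the epithelial minus the fibroblast change they were 75, against 38 with DESeq2, 45 with no TMM, 173 with no filter, 216 with Dpt fibroblasts and 125 to 349 without each library. For WT cycling cells they were 270, against 142 with DESeq2, 432 with no filter, 81 with no replicate block and 104 to 636 without each library; in mesothelium 1041, against 462 to 1394; in macrophages 649, against 124 with few C1q UMIs and 0 to 1282. The causes were not tested, apart from the fewer genes or samples in some fits.

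Without each WT library, log2 fold changes ran 0.59 to 1.46 for Ccnd1 and -0.15 to 0.62 for Mycn in epithelium, -0.77 to 0.22 for Ccnd1 and -0.028 to 0.40 for Ccnd3 in fibroblasts, 1.84 to 2.06 for Ccnd3 and -5.18 to 1.04 for Mycn in the epithelial minus the fibroblast change, 0.60 to 0.82 for Ccnd2 and 3.16 to 8.44 for Mycl in WT epithelium against fibroblasts, -0.79 to 0.29 for Myc and -0.053 to 1.02 for Mycn in WT cycling cells, and 3.33 to 3.62 for Ccnd2 in macrophages. In epithelium Mycl turned to 0.10 with no TMM, which shifted the median of all genes by 0.35, and to 0.15 under the intron limit. Myc was -0.083 and Mycn -0.62 with GOF cells without Axin2 or Nkd1, and -0.047 and -0.56 with such cells in all libraries. Ccnd2 in Dpt fibroblasts was 0.080. The Ccnd3 difference between cell types passed the threshold at 1.97 with no filter, 1.96 with limma-voom and 1.99 with Dpt fibroblasts. In WT epithelium against fibroblasts, Ccnd2 missed it at 0.69 with DESeq2, 0.64 with no TMM, 0.65 with a mitochondrial limit of 15% and 0.68 with a stricter gate, and Mycl at 3.11 with DESeq2 and 8.31 with Dpt fibroblasts. In WT cycling cells Myc was 0.0044 with no TMM and 0.056 with limma-voom, and Mycn -0.074 at the 15% limit. Ccnd2 in macrophages with few C1q UMIs was 4.19.

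With no replicate block, the WT epithelium against fibroblast values were 1.51 for Ccnd1 and 0.67 for Ccnd2, both past the threshold only with the block, which changed no other member's call. No paired analysis was possible because GOF is 1 library for the comparisons of GOF with WT.

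Thinning to 2000 UMIs moved the ratios of GOF cells with and without Axin2 or Nkd1 to 0.787 for Ccnd1, 1.19 for Ccnd2 and 1.03 for Ccnd3, and those of cycling and other cells to 0.805 for Ccnd1, 0.437 for Ccnd2, 0.678 for Ccnd3, 1.24 for Myc, 2.53 for Mycl and 0.714 for Mycn; requiring 2 UMIs gave 0.982, 0.669 and 0.711 for Ccnd1, Ccnd2 and Ccnd3. The share of GOF epithelial cells with Ccnd2 was 29.8%, 67.7% and 75.9% at 1000 UMIs, 4000 UMIs and full depth, and that with Ccnd3 15.1%, 45.5% and 66.6%. The Myc genes, with 99 to 440 UMIs over all WT epithelium, leave only large changes detectable. The cyclins exceed 5 kb of intron, so that alternative gives them no value.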
